A study of Mus musculus with 4 samples.

Results

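The genes of the nuclear lamina and the high-mobility-group (HMG) proteins that reorganize chromatin in senescent cells were examined in mouse embryonic fibroblasts (MEFs) treated with pigment epithelium-derived factor (PEDF). The 8 genes were Lmna, Lmnb1, Lmnb2, Lbr, Hmgb1, Hmgb2, Hmga1 and Hmga2, taken by symbol from a count table of 55487 genes, and every one passed the filter on low counts that left 19384 genes for testing. MEFs are primary cells isolated from embryos, here wild-type C57BL/6J embryos, and they enter senescence after a limited number of divisions in culture. Control MEFs were left untreated, and PEDF-treated MEFs received recombinant PEDF purified from mammalian cells at 100 ng/mL for 24 h. Both groups were kept in the same serum-containing medium and carried no transgene or deletion, and the sample labels gave the cells as passage 2 while the study's text gave passage 3. There were 2 control and 2 PEDF libraries of polyadenylated RNA, with 1 of each from experiment 1 and 1 of each from experiment 2, and the MEFs of each experiment came from different embryos. The comparison asks whether PEDF, which the study examined as a suppressor of senescence, altered the expression of these genes.

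Lamins form a filament network under the inner nuclear membrane. Lmna encodes the A-type lamins A and C, Lmnb1 and Lmnb2 encode the B-type lamins, and Lbr encodes the lamin B receptor, a membrane protein that holds heterochromatin at the nuclear edge. Loss of lamin B1 and of the lamin B receptor is a widely used mark of senescence. HMGB1 and HMGB2 bend DNA through their HMG boxes, and in senescent cells HMGB1 leaves the nucleus while HMGB2 declines. HMGA1 and HMGA2 bind AT-rich DNA through AT-hooks and are structural parts of senescence-associated heterochromatin, although HMGA2 is also a marker of embryonic, growing cells.

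Libraries held 14722848 to 18144640 counts, and the 8 genes together took 0.241% to 0.248% of them. The fibroblast markers Col1a1, Col1a2, Col3a1, Pdgfra, Pdgfrb, Thy1 and Vim summed to 35229 to 44167 CPM (counts per 1e+06 of a library total adjusted by a normalization factor). Markers of other cell types were far lower, with sums of 79.1 to 124 CPM for macrophages, 14.3 to 14.8 for endothelium, 42.5 to 56.7 for epithelium, 222 to 266 for skeletal muscle and 85.7 to 101 for neural cells, and no marker was at 0. In bulk RNA, fewer cells of a type and less RNA per cell cannot be told apart.

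None of the 8 genes passed edgeR's quasi-likelihood test of PEDF against control with adjustment over all 19384 genes, in which 1 gene, or 0.00516%, passed an adjusted p of 0.05. Only Hmgb2 had an unadjusted p under 0.05, a limit that 6.88% of all genes passed, while DESeq2 gave none of the 8 an unadjusted p under 0.05. The labels pair the libraries by experiment. With the experiment as a block, edgeR called Hmgb2 higher in PEDF-treated MEFs and none of the 8 lower, where 3.75% of all genes were called, 1.67% higher and 2.07% lower. With so few libraries, the SE and intervals of this fit drew mainly on a spread shared across genes. They and its calls do not measure how well a gene's own change agreed between the experiments. Hmgb1 and Hmgb2 were the 2 of the 8 that were higher in both experiments, against 30.1% of all genes. Lmnb1, Hmga1 and Hmga2 were the 3 of the 8 that were lower in both, against 28.8% of all genes. The median log2 fold change of the 8 genes was -0.01, beside 0.00 for all genes tested.

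**Figure D1:**
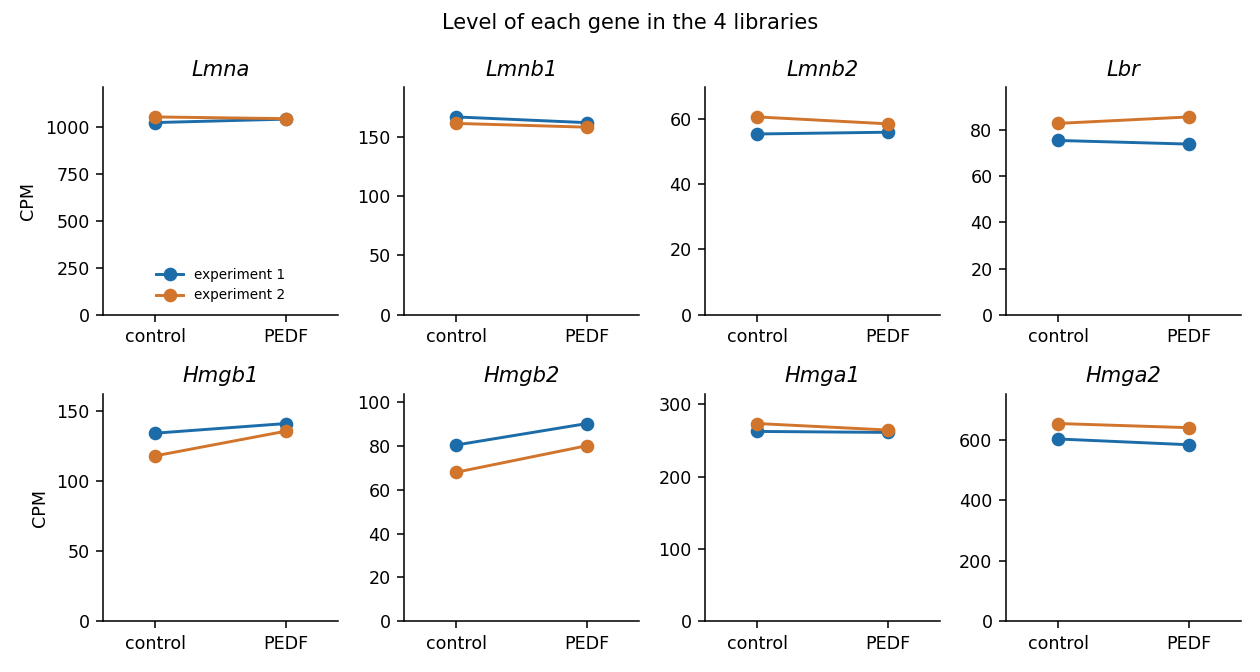
CPM of each gene (y axis, from 0, with its own scale for each gene) in control and PEDF-treated MEFs (x axis). Each line joins the control and the PEDF library of an experiment. For Hmgb1 and Hmgb2 both lines go up, and for Lmna, Lmnb1 and Lmnb2 they are nearly flat.

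Lmna (ENSMUSG00000028063, chromosome 3, 88480147 to 88509956, minus strand, GRCm38) was at 1026 and 1056 CPM in the control libraries of experiments 1 and 2 and at 1045 and 1047 CPM in the PEDF libraries. The PEDF values lay between the control values. The group levels were 1041 ± 21.2 and 1046 ± 1.73 CPM (SD, n = 2), and the log2 fold change was 0.01 (SE 0.07, adjusted p = 0.991, edgeR). Lmna stood near the top of the transcriptome, as 0.418% of the genes tested had a higher mean CPM.

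Lmnb1 (ENSMUSG00000024590, chromosome 18, 56707813 to 56753424, plus strand) was at 167 and 162 CPM in control MEFs and at 162.2 and 158 CPM in PEDF-treated MEFs. Treated libraries were lower in both experiments, with changes of -2.90% in experiment 1 and -1.96% in experiment 2, but the groups overlapped. With the experiment as a block, the log2 fold change was -0.04, with a 95% interval of -0.13 to 0.06 (adjusted p = 0.839, edgeR). In percent, this interval of the lamin whose loss marks senescence was -8.91% to 4.52%, and it was -11.9% to 8.03% without the block. With the block and the length correction the change was -5.62% (-11.8% to 0.953%, adjusted p = 0.544, edgeR).

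Lmnb2 (ENSMUSG00000062075, chromosome 10, 80901203 to 80918245, minus strand) was at 55.4 and 60.6 CPM in control MEFs and at 56.0 and 58.5 CPM in PEDF-treated MEFs. The PEDF values lay inside the control range. The log2 fold change was -0.02 (SE 0.08, adjusted p = 0.974, edgeR).

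Lbr (ENSMUSG00000004880, chromosome 1, 181815335 to 181843046, minus strand) was at 75.5 and 82.9 CPM in control MEFs and at 74.0 and 85.7 CPM in PEDF-treated MEFs. Here the experiments lay farther apart than the treatments, and the treated library was lower in experiment 1 and higher in experiment 2. The log2 fold change was 0.01 (SE 0.09, adjusted p = 0.985, edgeR). Lbr shared 440 exon bases with Dnah14 on the opposite strand. Dnah14 had 157 and 212 counts in control and 175 and 294 in PEDF libraries, against 1115 to 1528 for Lbr. Smaller opposite-strand exon overlaps included 140 bases of Hmga2 with 1700006J14Rik (276 to 443 counts) and 102 bases of Hmga1 with AI413582 (163 to 187 counts). Hmgb1 shared 42 bases with Uspl1 (652 to 809 counts). The strand setting of the counting is not given in the sources used here.

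Hmgb1 (ENSMUSG00000066551, chromosome 5, 149046702 to 149184489, minus strand) was at 134 and 118 CPM in control MEFs and at 141 and 136 CPM in PEDF-treated MEFs. Both treated libraries were above both controls, and Hmgb1 was the only 1 of the 8 genes whose groups did not overlap, an order in which 18.9% of all genes stood. The treated library was higher by 5.11% in experiment 1 and by 14.9% in experiment 2. On the log2 scale these were 0.07 and 0.20, with exact counting intervals, which cover counting error only, of -0.016 to 0.16 and 0.12 to 0.29. Group levels were 126 ± 11.4 and 138 ± 3.83 CPM (SD, n = 2), and the log2 fold change was 0.13 (SE 0.08, 95% interval -0.03 to 0.30, adjusted p = 0.758, edgeR). Leaving out control 2 moved this log2 fold change to 0.04, and leaving out control 1 moved it to 0.23. With the experiment as a block, the log2 fold change was 0.14 (SE 0.05, 95% interval 0.03 to 0.24, unadjusted p = 0.00966), but the adjusted p of 0.135 in edgeR was above 0.05.

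Hmgb2 (ENSMUSG00000054717, chromosome 8, 57511907 to 57515999, plus strand) was at 80.4 and 68.0 CPM in control MEFs and at 90.2 and 80.1 CPM in PEDF-treated MEFs. The highest control library, from experiment 1, slightly exceeded the PEDF library of experiment 2, so the groups overlapped, although within each experiment the treated library was the higher. The difference was 12.1% in experiment 1 and 17.8% in experiment 2. On the log2 scale these differences were 0.17 and 0.24, with exact counting intervals of 0.05 to 0.28 and 0.12 to 0.35 that cover counting error only. Without the block the log2 fold change was 0.20 (SE 0.09, unadjusted p = 0.0469, adjusted p = 0.719, edgeR). With the block it was 0.20 (SE 0.06, 95% interval 0.08 to 0.32, adjusted p = 0.0310, edgeR), an increase of 14.9% with an interval of 5.83% to 24.8%. That SE and interval drew mainly on a spread shared across genes, not on the agreement of the experiments for Hmgb2. A larger absolute change was seen in 36.8% of all genes. DESeq2 with the block gave the same log2 fold change of 0.20 with an SE of 0.115 (unadjusted p = 0.0817) and set no adjusted p. In the fit with no block, leaving out control 2 gave 0.08, leaving out PEDF 1 gave 0.11 and leaving out control 1 gave 0.32 on the log2 scale. When the block was fitted with a correction for gene length, the log2 fold change was 0.15 and the adjusted p was 0.196 (edgeR), where 2.22% of all genes were called and 0.94% were called higher.

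**Figure D2:**
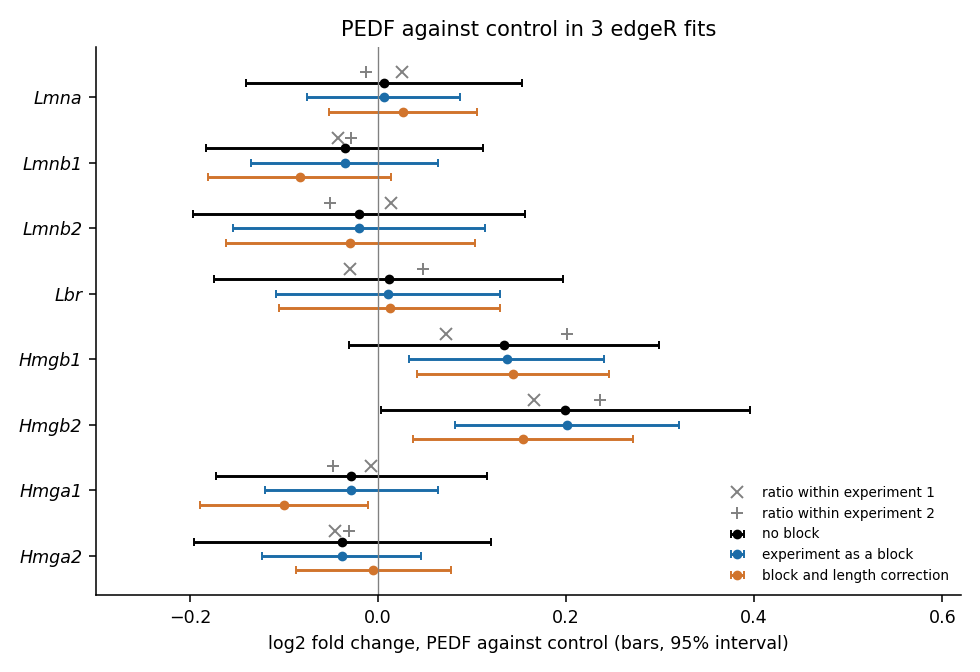
Log2 fold change of PEDF against control (x axis) for each gene (y axis) in 3 edgeR fits, with bars for 95% intervals, and the plain ratio within each experiment as crosses. The interval of Hmgb2 lies above 0 in all 3 fits and that of Hmgb1 in both fits with the block, while that of Hmga1 lies below 0 only after the length correction.

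Hmga1 (ENSMUSG00000046711, chromosome 17, 27556497 to 27563674, plus strand) was at 262 and 273 CPM in control MEFs and at 261 and 264 CPM in PEDF-treated MEFs. Treated libraries were lower in both experiments (-0.516% and -3.29%), but the groups overlapped. The log2 fold change was -0.03 (SE 0.07, adjusted p = 0.947, edgeR). After the block and the length correction it was -0.10, with an interval of -0.19 to -0.01 and an adjusted p of 0.331 in edgeR, where 1.28% of all genes were called lower.

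Hmga2 (ENSMUSG00000056758, chromosome 10, 120361275 to 120476469, minus strand) was at 603 and 654 CPM in control MEFs and at 584 and 641 CPM in PEDF-treated MEFs. As with Lbr, the libraries separated by experiment more than by treatment. Changes within the experiments were -3.15% and -2.10%, and the log2 fold change was -0.04 (SE 0.07, adjusted p = 0.939, edgeR). Apart from Hmgb1 and Hmgb2, the 95% intervals of the other 6 genes reached from -12.7% to 14.6% without the block and from -10.1% to 9.43% with it.

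The start-site sequences of these genes differed in their CCAAT boxes. They are shown for Hmgb1 and Hmgb2, which were higher in both experiments, and for Lbr and Hmga2, which were not. Sequences are from RefSeq on GRCm38.p6 and end 1 base before the RefSeq start site, which differs from the gene limits of the count table for Hmgb1, Hmgb2 and Lbr. The Hmgb2 window ends upstream of the gene's start at 57511907, and the windows of Hmgb1 and Lbr lie inside the limits of their genes. Capitals mark CCAAT and the GC box GGGCGG, searched on both strands, so that CCGCCC marks a GC box on the other strand. The coordinates are chr5:149053058-149053257 for Hmgb1, chr8:57511593-57511842 for Hmgb2, chr1:181842402-181842651 for Lbr and chr10:120476470-120476719 for Hmga2, on the minus strand except for Hmgb2.

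Hmgb1: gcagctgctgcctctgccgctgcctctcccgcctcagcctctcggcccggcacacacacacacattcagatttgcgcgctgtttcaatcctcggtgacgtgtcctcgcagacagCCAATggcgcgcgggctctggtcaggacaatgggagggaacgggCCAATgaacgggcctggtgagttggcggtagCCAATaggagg
Hmgb2: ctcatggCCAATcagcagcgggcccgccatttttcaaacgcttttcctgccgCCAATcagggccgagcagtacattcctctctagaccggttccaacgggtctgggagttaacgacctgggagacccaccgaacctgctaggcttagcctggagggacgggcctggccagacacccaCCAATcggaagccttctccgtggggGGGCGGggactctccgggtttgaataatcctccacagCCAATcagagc
Lbr: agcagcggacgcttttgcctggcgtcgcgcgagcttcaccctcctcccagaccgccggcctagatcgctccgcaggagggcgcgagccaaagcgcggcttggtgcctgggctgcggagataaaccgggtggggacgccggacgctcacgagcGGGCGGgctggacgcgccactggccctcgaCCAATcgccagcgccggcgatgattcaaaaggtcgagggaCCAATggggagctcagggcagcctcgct
Hmga2: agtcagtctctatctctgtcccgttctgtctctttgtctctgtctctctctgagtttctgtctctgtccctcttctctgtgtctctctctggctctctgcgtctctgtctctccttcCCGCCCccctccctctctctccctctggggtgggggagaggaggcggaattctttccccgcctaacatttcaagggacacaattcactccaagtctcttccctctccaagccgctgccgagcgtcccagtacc

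Positions give the first base of a match, counted back from -1 at the last base before the start site. CCAAT, the box read by the trimeric factor NF-Y, stood at positions -86, -42 and -11 of Hmgb1 and at -243, -198, -73 and -11 of Hmgb2. Among 32851 RefSeq windows of 250 bases, 33.9% held CCAAT at least once and 2.79% held it 3 or more times. Lbr held it at -68 and -28, and Hmga2 did not hold it. The farthest 50 bases of the Hmgb1 window, which reach into an exon of another Hmgb1 transcript, are not shown. The RefSeq windows of Hmga1 and Lmnb2 also held none, and Lmna held 1 in 1 of its 2 windows. The window of Lmnb1 was not analysed here. A second RefSeq window of Hmgb1, not shown because it held no CCAAT, held 4 GC boxes. GGGCGG was found in 32.7% of all windows. TTTGAA, the letters of the cell cycle homology region, occurred in Hmgb2 at -218 and -30 and in Lbr at -45, and in 16.0% of all windows. Such matches describe the letters only, and their part in the changes with PEDF was not tested.

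Some of these genes have near-identical copies. The study counted uniquely mapped reads, so a read that matches a gene and its copy equally well is counted for neither. Of the 100-base windows in the transcripts of Hmga1, 40.1% also occurred in another gene, mainly Hmga1b, a coding gene at 43.0 and 45.7 CPM in control and 45.8 and 46.6 CPM in PEDF libraries. For Hmgb1 the share was 18.1%, spread over 52 other genes, of which 34 had counts. These genes, pseudogenes apart from Ppm1e, summed to 819 and 922 counts in control and 945 and 967 in PEDF libraries, beside 1980 to 2416 for Hmgb1 itself. The coding sequence of Hmgb1 matched the copy Gm15387 at 644 of 645 bases, and that of Hmgb2 matched Gm4739 at 628 of 630 bases. Hmgb2 shared 16.7% of its windows with 5 genes, of which 3 had counts, 105 to 114 in sum per library. No window of the 3 lamin genes occurred elsewhere. The 60-base coding stretches printed here, from GENCODE release M21 transcripts, are identical in a copy, so a read pair that lies wholly inside such a stretch has no unique origin.

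Hmga1 coding bases 1 to 60: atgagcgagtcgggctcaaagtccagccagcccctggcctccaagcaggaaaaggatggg
Hmgb1 coding bases 22 to 81: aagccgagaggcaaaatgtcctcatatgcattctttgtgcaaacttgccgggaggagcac
Hmgb2 coding bases 1 to 60: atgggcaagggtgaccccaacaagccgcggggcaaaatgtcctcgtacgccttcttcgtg

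Levels of different genes were compared per length, in the deposited TPM, which account for gene length. Lmna was the highest, with a mean of 506 TPM over the 4 libraries (491 to 524), followed by Hmga1 at 354 (337 to 372), Hmga2 at 260 (237 to 280) and Lmnb1 at 155 (150 to 159). The ranges of these neighbours did not overlap. Hmgb2 at 75.0 (65.5 to 82.3) and Hmgb1 at 74.5 (68.0 to 77.7) could not be ordered, and Lbr at 47.4 (42.6 to 51.8) lay above Lmnb2 at 38.1 (35.8 to 41.0).

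**Figure D3:**
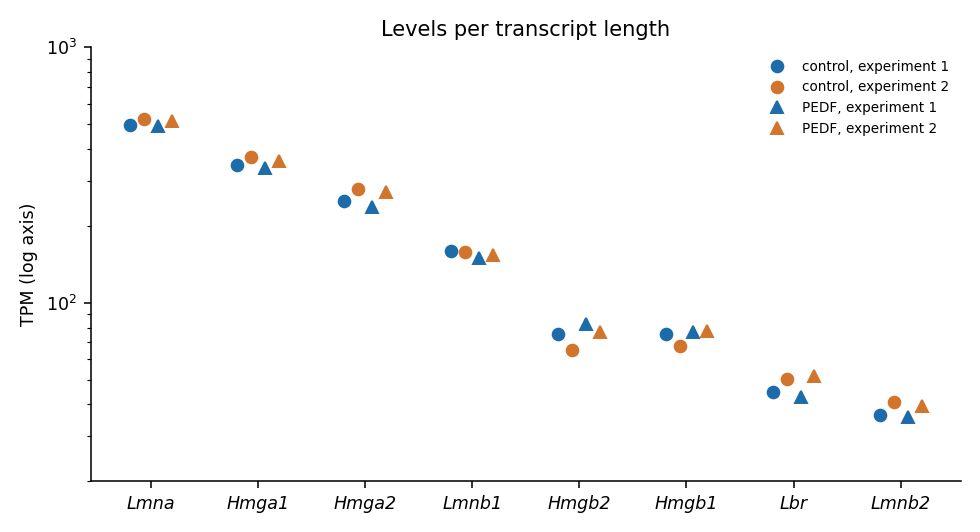
TPM (y axis, log scale) of each gene (x axis) in the 4 libraries, ordered by mean. Circles are control and triangles PEDF libraries, coloured by experiment. Hmgb1 and Hmgb2 share a range, and Lmna has the highest deposited TPM at 491 to 524. Reads that match a gene and its copy equally well are not counted, which can lower Hmga1, Hmgb1 and Hmgb2.

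Ratios within a library removed differences in depth. The ratio of Lmna to Lmnb1 was 3.12 and 3.32 in control MEFs and 3.27 and 3.35 in PEDF-treated MEFs, so the groups overlapped (exact permutation test, two-sided, p = 0.667). Lmna to Lmnb2 was 13.6 and 12.8 against 13.7 and 13.1, and Lmnb1 to Lmnb2 was 4.36 and 3.86 against 4.19 and 3.92. Hmgb1 to Hmgb2 was 0.997 and 1.04 against 0.935 and 1.01, and Hmga1 to Hmga2 was 1.39 and 1.33 against 1.42 and 1.31. None of the 5 ratios separated the groups. Within both experiments Lmna to Lmnb1 and Lmna to Lmnb2 were higher and Hmgb1 to Hmgb2 was lower in the PEDF library. The test did not pair the libraries, and with 2 against 2 it cannot give a p below 0.333, so no ratio could have passed.

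Between the experiments, Hmgb2 was lower in experiment 2 than in experiment 1, with the treatment as a term (log2 difference -0.21, SE 0.06, adjusted p = 0.0224, edgeR, or -13.3%). It was the only 1 of the 8 called, where 4.49% of all genes were called, 2.19% lower and 2.3% higher. Hmgb1 had a difference of -0.12 (adjusted p = 0.226), Lbr of 0.17 (adjusted p = 0.0749) and Hmga2 of 0.13 (adjusted p = 0.0700), all in edgeR. The call was lost with the length correction (-0.17, adjusted p = 0.0920, edgeR), without the treatment term (-0.20, adjusted p = 0.628, edgeR) and in DESeq2 (-0.21), which set no adjusted p. For Hmgb2 the difference between MEF preparations was about as large as that with PEDF. Lmna differed least between the experiments, by 0.02 on the log2 scale (adjusted p = 0.882, edgeR).

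Genes that act with the lamins and HMG proteins were read from the same fit with the block, since edgeR without it called no gene of any list at the same filter. Among 17 partners of the lamina and of the LINC complex, which couples the nucleus to the cytoskeleton, 2 fell and none rose, beside 2.07% and 1.67% of all genes, with a median log2 fold change of -0.04. They were the nesprins Syne1 (42.3 and 45.3 CPM in control, 35.2 and 32.4 in PEDF, log2 fold change -0.38, adjusted p = 3.67e-04, edgeR) and Syne2 (55.6 and 53.3 CPM in control, 43.2 and 41.9 in PEDF, -0.35, adjusted p = 1.63e-04, edgeR). Their groups did not overlap, as for the 18.4% of all genes in which both PEDF libraries were lower. With the length correction these values were -0.16 (adjusted p = 0.397) and -0.19 (adjusted p = 0.203) in edgeR. Their exons summed to 40491 and 26726 bp. None of the 6 prelamin processing enzymes was called. Of them, 4 were higher and none lower in both experiments, beside 30.1% and 28.8% of all genes, with a median log2 fold change of 0.10. Fntb was at 25.5 and 23.1 CPM in control and 25.9 and 30.6 in PEDF libraries (log2 fold change 0.22, adjusted p = 0.224, edgeR). Zmpste24, the protease that matures lamin A, was at 100.4 and 104 CPM in control and 103 and 102 in PEDF libraries.

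Of the 13 other HMG genes, Hmgb4 had no count, and none of the 12 tested was called. Hmgn1, a nucleosome-binding protein, was at 419 and 374 CPM in control and 443 and 419 in PEDF libraries (log2 fold change 0.12, adjusted p = 0.106, edgeR). Hmgn3 was at 27.9 and 29.4 CPM in control and 36.7 and 32.4 in PEDF libraries (log2 fold change 0.26, adjusted p = 0.0685, edgeR). Of the 12 genes, 4 were higher and 3 lower in both experiments, beside 30.1% and 28.8% of all genes. Among 26 genes of heterochromatin and senescence foci, Ep400, a chromatin remodelling ATPase, fell and none rose, beside 2.07% of all genes called lower and 1.67% higher. Ep400 was at 102 and 112 CPM in control and 85.3 and 88.5 in PEDF libraries (log2 fold change -0.30, adjusted p = 2.61e-05, edgeR). Ep400 was still lower after the length correction (-0.20, adjusted p = 0.0264, edgeR). DESeq2 with the block set no adjusted p for Ep400, Syne1 or Syne2. None of the 8 genes for HMGB1 receptors and partners was called, nor were the 5 tested genes related to Hmga2, which include Igf2bp2, an mRNA-binding protein at 147 and 139 CPM in control and 144 and 134 in PEDF libraries.

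**Figure D4:**
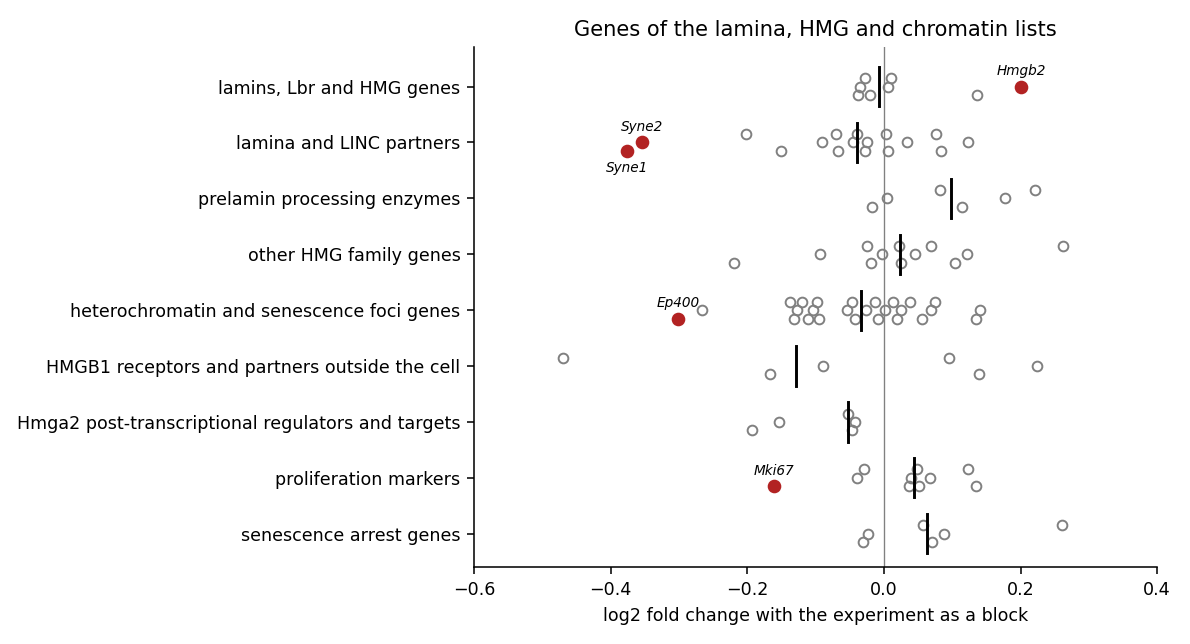
Log2 fold change with the experiment as a block (x axis) for the 98 tested genes of 9 lists (y axis). Filled points passed an adjusted p of 0.05, bars are medians over every tested gene of a list, and 2 genes of the HMGB1 receptor list lie outside the axis. Hmgb2 is the only filled point above 0.

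Hmgb2 is abundant in dividing cells, so proliferation markers are given beside it. Their summed level was 1219 and 1261 CPM in control and 1222 and 1243 in PEDF libraries. Of the 10 genes, 5 were higher and 2 lower in both experiments, beside 30.1% and 28.8% of all genes. Only Mki67 was called, and lower, as were 2.07% of all genes (218 and 235 CPM in control, 200.3 and 205 in PEDF, log2 fold change -0.16, adjusted p = 0.0298, edgeR with the block). With the length correction Mki67 was at -0.09 (adjusted p = 0.440, edgeR), and in DESeq2 with the block it was at -0.16 (adjusted p = 0.291). Of 6 senescence arrest genes none was called, with Cdkn1a at 0.09 (adjusted p = 0.346) and Cdkn2a at 0.26 (adjusted p = 0.434, edgeR with the block). Among cell type markers, Col1a1, Col1a2 and Pdgfrb of 7 fibroblast genes fell, Des and Acta1 of 4 muscle genes rose and Lyz2 of 5 macrophage genes rose with the block, where 2.07% of all genes were called lower and 1.67% higher. Lyz2 was higher by 3.45% in experiment 1 and by 75.5% in experiment 2, so its call rested on experiment 2, and the median of the macrophage list was -0.02. With the length correction Col1a1 and Pdgfrb were called lower and Lyz2 higher, beside 1.28% and 0.94% of all genes. In DESeq2 with the block Pdgfrb passed (adjusted p = 0.0189), Col1a1 and Col1a2 did not (adjusted p = 0.117 for each), and no adjusted p was set for Lyz2, Des and Acta1. Fibroblast sums were 38062 to 44167 CPM in control and 35229 to 37914 in PEDF libraries, muscle sums 222 to 234 and 251 to 266, and macrophage sums 79.1 to 124 and 99.0 to 120.1. The part of these markers in the values of Hmgb1 and Hmgb2 was not tested.

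The fold changes with the block moved with gene length. Over 10720 expressed genes (mean log2 CPM over 3), the median log2 fold change with the block was 0.09 for the 1008 genes of 1000 to 2000 bp and -0.08 for the 2124 genes over 8000 bp. Hmgb2, with 3003 bp of exons, was in a class of 2000 to 4000 bp with a median of 0.05, and Hmgb1, with 5023 bp, was in a class with a median of -0.01. Hmga1, at 2125 bp, and Lmnb1, at 2962 bp, were also in the 2000 to 4000 bp class and lay below its median.

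**Figure D5:**
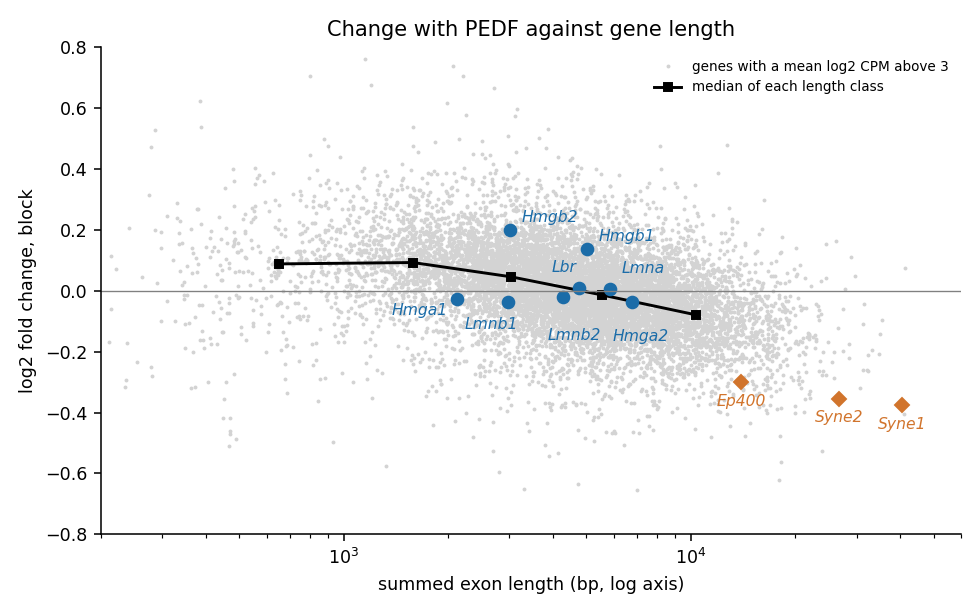
Log2 fold change with the block (y axis) against summed exon length (x axis, log scale) for 10720 genes, of which 21 lie outside the axes. Squares are medians by length class. Hmgb1 and Hmgb2 lie above the line of medians, and Syne1, Syne2 and Ep400 lie at the long, low end.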

How the data were processed

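RNA from 2 control and 2 PEDF-treated MEF libraries was sequenced by the authors after poly(A) selection and directional library preparation. Per the labels, processing used FastQC 0.11.7, Trimmomatic 0.38, HISAT2 2.1.0, SAMtools 1.9, featureCounts 1.6.3 and mm10. The authors deposited raw counts per gene without normalization, and TPM values with a sum of 1000000 per library. The annotation and strand setting are not given in the sources used here. Coordinates equalled those of GENCODE release M21 for 54784 of 55487 genes.

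Counts were tested in R 4.3.3 with edgeR 4.0.16 (TMM factors, quasi-likelihood test, robust) over genes with at least 10 counts in total, with Benjamini-Hochberg adjustment and the treatment as the only term. The study's text names DESeq2 and no model terms. CPM were counts divided by the library total times its TMM factor (0.983 to 1.01) and multiplied by 1e+06. A further fit took the experiment as a block, since MEFs of an experiment shared embryos per the labels. Between the experiments, differences in control and in PEDF libraries correlated across 10722 genes (r = 0.423, genes not being independent replicates). The length correction used natural splines with 5 degrees of freedom as an offset. DESeq2 1.42.0, RLE factors, other filters, limma 3.58.1 on log2(TPM + 1) and leaving out each library were alternatives. Scripts were tested on simulated data.

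The 8 genes were always named. From each list, genes with an adjusted p under 0.05, and otherwise the most expressed gene and the one with the largest change, could be named, and copies and overlapping genes where they bear on a count. The genes and lists were chosen with earlier results of these data known. Counting intervals and p-values cover these 4 libraries only.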

Additional observations from a re-analysis of the deposited data

How the results depend on the processing

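Of the 8 genes, the count called with PEDF was 0 in edgeR and remained 0 in each alternative but the replicate block, which gave 1 (Hmgb2). Over all genes the count called was 1 in edgeR and with RLE factors, 3 in DESeq2, 106 without a filter on low counts, 0 with filterByExpr, 0 in limma on log2(TPM + 1), 726 with the replicate block, 119 with the block in DESeq2, 430 with the block and length correction, and 2 to 205 with 1 library left out (205 without control 1, 24 without PEDF 2). The block changed no call of the other 7 genes. With 1 library left out, log2 fold changes ranged from 0.08 to 0.32 for Hmgb2 and from 0.04 to 0.23 for Hmgb1, both above 0 in every setting, and the adjusted p of Hmgb2 ranged from 0.0310 to 1.00 over all settings. Smaller values changed sign with 1 library left out, over ranges of -0.015 to 0.026 for Lmna, -0.083 to 0.046 for Lmnb2, -0.099 to 0.11 for Lbr, -0.058 to 0.00039 for Hmga1 and -0.11 to 0.026 for Hmga2. Lmnb1 kept its sign, over a range of -0.061 to -0.012. In limma on log2(TPM + 1), Lmna was -0.017 and Lbr -0.015. Among list genes, Zmpste24 was -0.018 in limma, and with the block and length correction Kdr was 0.020 and Tubb3 -0.015. Between the experiments, 870 genes were called, 11 without a term for the treatment and 102 in DESeq2. The count of the 8 genes called there was 1, and 0 without that term, in DESeq2 and with the length correction, where Lmna was -1.5e-05. The causes were not tested. Leaving out a library leaves 1 library in an arm, assumed to vary like the other. The comparison of experiments was not run with a library left out, as no residual degrees of freedom remain.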
